A study of Mus musculus with 6 samples.

Results

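Mature beta-cells are told apart from immature and dedifferentiated ones by the genes they transcribe, and 7 such marker genes were examined in mouse islets with and without FXR: *Ucn3*, *Cd81*, *Cfap126*, *Neurog3*, *Npy*, *Aldh1a3* and *Gast*. The genes were chosen by name as markers of beta-cell maturation and dedifferentiation and were found by symbol among the 19342 genes of the deposited count table, which listed all 7. After the filter on low counts 14619 genes were tested, and 6 of the 7 markers passed it. *Gast* did not pass. RNA-seq of islets gave 3 libraries from FXR+/+ (wild-type) mice and 3 libraries from FXR-/- (FXR knockout) mice, all labelled as 3 months of age. Each genotype had 1 library from female mice and 2 from male mice, called here female 1, male 1 and male 2. The knockout mice were on the C57Bl/6 background and came from another laboratory, the islets were isolated from the pancreas, and no treatment beyond isolation is labelled. It is not stated if each library is 1 mouse or a pool, so the p-values below measure only the spread between these libraries, which may be technical.

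Beta-cells are the insulin-secreting cells of the islet. They arise from endocrine progenitors that transiently switch on *Neurog3*, and in the weeks after birth they turn off neonatal genes such as *Npy* and turn on genes of the mature state such as *Ucn3*. In diabetic and stressed islets, beta-cells can lose mature genes and gain progenitor or foreign endocrine genes, among which *Aldh1a3* and *Gast* are widely used as marks of dedifferentiation. *Cfap126*, also called Flattop, separates mature from proliferative beta-cells through the planar cell polarity pathway, while *Cd81* has been used as a surface mark of immature or stressed beta-cells. FXR, encoded by *Nr1h4*, is a nuclear receptor for bile acids that binds DNA with the retinoid X receptor, mostly at inverted repeats of the half-site AGGTCA.

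None of the 6 tested markers differed between genotypes beyond the threshold. By edgeR's quasi-likelihood test with Benjamini-Hochberg adjustment over all tested genes, 0 of 6 markers had an adjusted p under 0.05, against 0% of all 14619 genes tested. The lowest adjusted p of any gene was 0.129, and the targeted *Nr1h4* had 0.215 in the same test. The count for the markers therefore says nothing particular about them. At an unadjusted p under 0.05, 2 of the 6, *Npy* and *Cd81*, were higher in FXR-/- islets and 0 lower, against 6.18% and 4.16% of all genes. In the same 2 genes every FXR-/- library was above every FXR+/+ library, a pattern that 8.01% of tested genes showed. DESeq2, run on the same counts, also gave an adjusted p under 0.05 to 0 of 6 markers, against 1.16% of all genes. It gave an unadjusted p under 0.05 to 3 markers, *Npy*, *Cd81* and *Ucn3*, against 1331 of all 14619 genes. *Npy* and *Cd81* mark the immature state, while the progenitor and dedifferentiation markers *Neurog3* and *Aldh1a3* had log2 fold changes of −0.02 and 0.14 with overlapping libraries. The markers of the mature state, *Ucn3* and *Cfap126*, had 0.18 and −0.01, also with overlap.

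**Figure D1:**
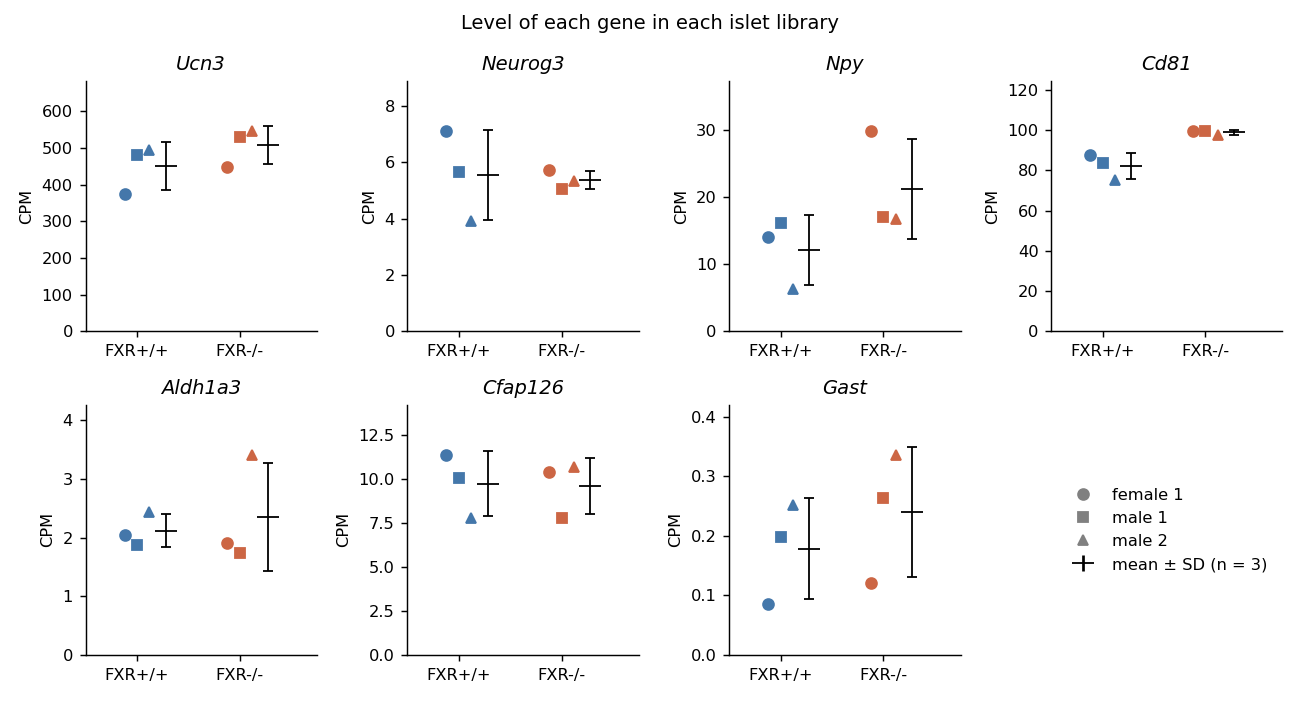
Level of each marker in CPM (vertical axes starting at 0) in the 3 FXR+/+ and 3 FXR-/- libraries, with a symbol for each library and the mean ± SD beside them. The groups are separate in *Npy* and *Cd81* and overlap in the other 5 genes.

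The libraries held 20629306 to 30139235 counts on genes. *Nr1h4* checked the labels: its level in CPM, the counts scaled to the size of the library, was 12.2 to 14.2 in FXR+/+ and 5.67 to 7.62 CPM in FXR-/- islets (log2 fold change −1.07, SE 0.160, adjusted p = 0.215 by edgeR). *Ins1* and *Ins2* took 17.5% to 23.9% of the counts of a library. RNA of acinar cells, which make the digestive enzymes of the exocrine pancreas, also varied: 18 acinar genes summed to 43700 to 132000 CPM in FXR+/+ and 61200 to 150000 CPM in FXR-/- libraries, with the highest value of each genotype in its male 1. In bulk islets, fewer cells of a type and less RNA per cell cannot be told apart, here and in all results below.

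The sequences before the transcription start are shown for *Ucn3*, the most abundant marker, and for *Npy* and *Cd81*, whose groups did not overlap. They are the 250 bases upstream in RefSeq on GRCm38.p6, written 5′ to 3′ on the strand of the gene, at chr13:3945350-3945599 (minus strand), chr6:49822460-49822709 (plus strand) and chr7:143052500-143052749 (plus strand). Capitals mark the E-box CANNTG, the motif of basic helix-loop-helix factors such as NEUROG3 and NEUROD1, which reads the same on both strands.
Ucn3: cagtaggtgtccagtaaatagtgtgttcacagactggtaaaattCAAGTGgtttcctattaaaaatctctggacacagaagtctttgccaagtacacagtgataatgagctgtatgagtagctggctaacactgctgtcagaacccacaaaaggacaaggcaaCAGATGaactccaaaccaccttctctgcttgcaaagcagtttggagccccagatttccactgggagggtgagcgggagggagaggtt
Npy: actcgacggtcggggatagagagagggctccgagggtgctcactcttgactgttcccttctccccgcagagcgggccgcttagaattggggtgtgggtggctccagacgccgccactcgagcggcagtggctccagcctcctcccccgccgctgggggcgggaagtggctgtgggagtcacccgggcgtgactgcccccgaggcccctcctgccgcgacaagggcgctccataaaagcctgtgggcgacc
Cd81: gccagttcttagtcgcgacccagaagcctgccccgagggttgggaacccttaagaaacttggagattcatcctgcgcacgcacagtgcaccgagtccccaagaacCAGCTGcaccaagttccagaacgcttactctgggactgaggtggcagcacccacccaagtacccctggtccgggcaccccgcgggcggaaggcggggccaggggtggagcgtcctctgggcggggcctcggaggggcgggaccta
The *Ucn3* window held 2 E-boxes, the *Cd81* window held 1 and the *Npy* window held 0. Of all 32851 promoter windows of this length, 66.2% held an E-box. The windows of *Npy* and *Cd81* were rich in G and C (69.2% and 65.6%, with 21 and 16 CpG dinucleotides), whereas that of *Ucn3* was at 46.4% with 1 CpG. The half-site AGGTCA was searched on both strands in the 8 windows of the 6 markers that had an entry (3 of them from *Cfap126*) and was in 0 of them, while 14% of all windows held it. No match says only that these letters are not in these windows.

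Per kilobase of exon, the mean levels of the markers over the 6 libraries ran from 0.455 (*Gast*) to 324 CPM per kb (*Ucn3*). *Ucn3* was at 305 ± 44.3 CPM per kb in FXR+/+ and 344 ± 35.6 CPM per kb in FXR-/- islets (SD, n = 3), above 99.5% of the tested genes. It was followed by *Cd81* (28.5 ± 2.22 and 34.4 ± 0.362 CPM per kb) and *Npy* (21.4 ± 9.21 and 37.4 ± 13.3 CPM per kb), which were not ordered beyond their spread. *Cfap126* stood at 5.51 ± 1.03 and 5.42 ± 0.897 CPM per kb, and *Neurog3* at 3.32 ± 0.957 and 3.20 ± 0.198 CPM per kb. *Aldh1a3* (0.459 ± 0.0608 and 0.509 ± 0.199) and *Gast* (0.388 ± 0.185 and 0.522 ± 0.237 CPM per kb) were lowest and not ordered beyond their spread. On this scale the mature peptide marker was the most abundant of the panel in both genotypes, and the 2 dedifferentiation marks were the least abundant.

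*Ucn3* encodes urocortin 3, a peptide that beta-cells release with insulin and that acts on delta-cells to release somatostatin. The gene (NCBI gene 83428) is on chromosome 13, minus strand, at 3940688 to 3945349 in GRCm38. Counts on *Ucn3* were 8804, 9733 and 15655 for FXR+/+ female 1, male 1 and male 2, against 11078, 10098 and 12994 for FXR-/- in the same order. These counts gave 375, 482 and 494 CPM in FXR+/+ against 448, 531 and 546 CPM in FXR-/- islets. In each genotype the female library was the lowest, and the groups overlapped. The means were 450 ± 65.5 and 509 ± 52.6 CPM (SD, n = 3). The difference was within the replicate error, with a log2 fold change of 0.18 (SE 0.093, 95% interval −0.04 to 0.40, adjusted p = 0.508 by edgeR's quasi-likelihood test) and p = 0.4 in a two-sided exact permutation test over the 20 relabellings, which cannot go below 0.1. With libraries scaled by their size alone the log2 fold change was 0.09. Paired by number, FXR-/- was above FXR+/+ in 3 of 3 pairs, by 1.20, 1.10 and 1.11 times. The 2 listed exons had similar values, with log2 fold changes of 0.18 in the 969-base exon and 0.20 in the 509-base exon.

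The receptors of the urocortin family were low in these islets. *Crhr1*, the receptor for corticotropin-releasing hormone, was at 1.20 ± 0.507 CPM in FXR+/+ against 2.63 ± 0.879 CPM in FXR-/- islets (SD, n = 3), with a log2 fold change of 1.15 (SE 0.309, adjusted p = 0.369 by edgeR). Its groups overlapped by a small margin, since FXR-/- female 1 at 1.70 CPM was below FXR+/+ male 1 at 1.78 CPM. *Crhr2*, the receptor that binds urocortin 3, stood at 1.80 ± 0.505 and 2.06 ± 0.336 CPM (log2 fold change 0.21). Of the 3 tested genes of the family, 1 had an unadjusted p under 0.05 with a higher level and 0 with a lower one. The background was 6.18% higher and 4.16% lower. In this family 0 had an adjusted p under 0.05.

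*Cfap126* (NCBI gene 75472; chromosome 1, plus strand, 171113918 to 171126967) encodes Flattop, a protein of cilia and basal bodies. It had 268, 204 and 247 counts for FXR+/+ against 256, 148 and 254 for FXR-/-. This gave 11.4, 10.1 and 7.79 CPM against 10.4, 7.78 and 10.7 CPM. Male 2 was the lowest library in FXR+/+ and the highest in FXR-/-, and the groups overlapped across nearly their whole range. The means were 9.77 ± 1.83 and 9.61 ± 1.59 CPM (SD, n = 3), with a log2 fold change of −0.01 (SE 0.172, 95% interval −0.42 to 0.39, adjusted p = 0.98 by edgeR). The ratios within pairs were 0.908, 0.77 and 1.37, so the pairs did not share a direction.

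Of 24 genes of planar cell polarity and noncanonical WNT signalling, the pathway in which Flattop acts, 0 had an adjusted p under 0.05. At an unadjusted p under 0.05, 1 was higher and 1 lower in FXR-/- islets (background 6.18% higher and 4.16% lower), and the median log2 fold change was 0.10 against 0.00837 over all tested genes. *Fzd3*, a frizzled receptor, was at 52.0 ± 6.70 CPM in FXR+/+ against 41.5 ± 0.643 CPM in FXR-/- islets (log2 fold change −0.33, adjusted p = 0.432 by edgeR). *Dvl2*, which relays the frizzled signal, was at 24.1 ± 1.59 and 28.1 ± 1.83 CPM (0.22, adjusted p = 0.481). *Wnt4*, a noncanonical ligand made by mature beta-cells and the most abundant of the list per kb, was at 217 ± 33.1 and 246 ± 47.5 CPM (0.18, adjusted p = 0.676).

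**Figure D2:**
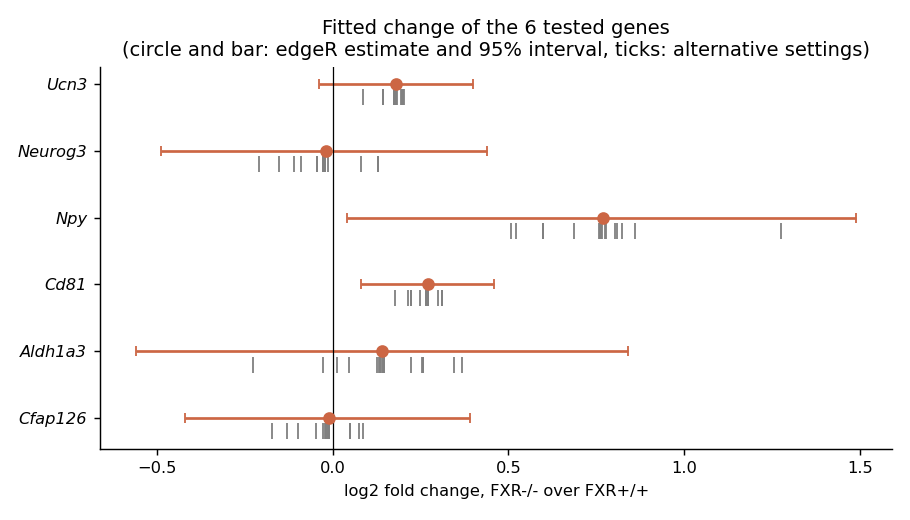
Log2 fold change of FXR-/- over FXR+/+ islets (horizontal axis) for the 6 tested markers, with the edgeR estimate and its 95% interval as a circle and bar and the estimates under the alternative settings as ticks. The intervals of *Npy* and *Cd81* start at 0.04 and 0.08, and those of the other 4 genes include 0.

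*Neurog3* (NCBI gene 11925) encodes the transcription factor that starts the endocrine program in the pancreatic progenitor. It lies on the plus strand of chromosome 10 from 62133090 to 62134763, inside *Fam241b* on the opposite strand, with which it shares 273 exon bases. It is also on the chromosome of the targeted *Nr1h4*, 27.3 Mb away. *Neurog3* had 167, 114 and 124 counts for FXR+/+ against 141, 96 and 127 for FXR-/-. The levels were 7.11, 5.65 and 3.91 CPM in FXR+/+ against 5.71, 5.05 and 5.34 CPM in FXR-/- islets. The FXR-/- values fell inside the FXR+/+ range, and the means of 5.56 ± 1.6 and 5.36 ± 0.332 CPM (SD, n = 3) differed by less than the SD. With a log2 fold change of −0.02 (SE 0.198, adjusted p = 0.969 by edgeR), the 95% interval ran from −0.49 to 0.44, so smaller differences in either direction could not be detected here. How the counting used strand is not stated. *Fam241b*, listed in the table under an older symbol, was at 19.0 to 25.4 CPM with a log2 fold change of −0.10 (SE 0.111).

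The genes upstream and downstream of NEUROG3 gave no adjusted p under 0.05 either. Of 14 tested upstream genes (Notch pathway and progenitor factors), 2 were higher and 1 lower at an unadjusted p under 0.05, with a median log2 fold change of 0.21. The background was 6.18% higher and 4.16% lower, with a median of 0.00837 over all tested genes. A positive log2 fold change was found in 12 of the 14, and also in 16 of 18 acinar markers. *Notch1*, whose signal represses *Neurog3*, was at 71.7, 75.0 and 65.5 CPM in FXR+/+ against 86.3, 90.2 and 77.9 CPM in FXR-/- libraries (log2 fold change 0.26, adjusted p = 0.45 by edgeR). All 3 FXR-/- libraries were above all 3 FXR+/+ libraries, as in 8.01% of tested genes. *Sox9*, a factor of ducts and progenitors, was at 3.38 ± 1.79 and 6.29 ± 1.85 CPM (SD, n = 3; 0.93, adjusted p = 0.457 by edgeR). *Hnf4a*, a liver and islet transcription factor, was at 38 ± 0.895 and 32.2 ± 2.66 CPM (−0.24, adjusted p = 0.457 by edgeR). *Foxa2*, a pioneer factor of the pancreas and the most abundant of the list per kb, was at 97.3 ± 10.5 and 102 ± 2.56 CPM with overlapping libraries. *Sox9* also belongs to the ductal markers, which summed to 568 to 921 CPM in FXR+/+ and 599 to 1090 CPM in FXR-/- libraries. Of the 9 tested ductal markers, *Sox9* included, 8 had a positive log2 fold change, with a median of 0.37. At an unadjusted p under 0.05 by edgeR, 3 were higher and 0 lower (background 6.18% and 4.16%). The part of ductal cells in the values of *Sox9* was not tested.

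Of 13 tested targets of NEUROG3 and genes of endocrine differentiation, 0 were higher and 2 lower at an unadjusted p under 0.05 (background 4.16% lower), with a median log2 fold change of −0.08. *Isl1*, a LIM-homeodomain factor of all islet endocrine cells, was at 147, 157 and 139 CPM in FXR+/+ against 117, 93.6 and 108 CPM in FXR-/- libraries. Every FXR-/- library was lower, as in 7.37% of all tested genes (log2 fold change −0.48, SE 0.0988, adjusted p = 0.266 by edgeR). *St18*, a zinc-finger factor of endocrine cells, was at 128 ± 4.25 and 104 ± 9.99 CPM (−0.30, adjusted p = 0.427), again without overlap. *Insm1*, a zinc-finger factor and the most abundant of the list per kb, was at 220 ± 17.9 and 260 ± 34.8 CPM, and *Neurod1*, a direct target of NEUROG3, at 182 ± 18.7 and 173 ± 7.22 CPM, both with overlapping libraries.

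*Npy* (NCBI gene 109648; chromosome 6, plus strand, 49822710 to 49829507) encodes neuropeptide Y, which neonatal beta-cells make and which sympathetic nerves also carry. It had 329, 326 and 198 counts in FXR+/+ female 1, male 1 and male 2, and 737, 324 and 396 counts in the FXR-/- libraries in the same order. The levels were 14.0, 16.1 and 6.25 CPM in FXR+/+ against 29.8, 17.0 and 16.7 CPM in FXR-/- islets. The FXR-/- values were all above the FXR+/+ values, but the margin was small, 16.7 against 16.1 CPM, and FXR-/- female 1 stood well above the other 5 libraries. The means were 12.1 ± 5.21 and 21.2 ± 7.5 CPM (SD, n = 3). The log2 fold change was 0.77 (SE 0.311, 95% interval 0.04 to 1.49, unadjusted p = 0.0415, adjusted p = 0.474 by edgeR's quasi-likelihood test), and the two-sided exact permutation test gave p = 0.1, the smallest it can give.

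*Npy* was the most variable of the tested markers. Its within-group SD on the log2 scale, 0.596, was above that of 96.8% of the tested genes. The ratios within pairs were 2.13, 1.05 and 2.67, so male 1 was nearly level between the genotypes. Without FXR+/+ male 2, the lowest library, the log2 fold change was 0.51, and without FXR+/+ male 1 it was 1.27 (adjusted p = 0.0838 by edgeR). With the term for acinar RNA it was 0.52, and with the replicate number as a block 0.86 (adjusted p = 0.145, in a fit that called 0.164% of all genes). In no setting did it pass the threshold.

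The exon table gave no second reading of *Npy*. It held 33 counts on 4 *Npy* exons, 1.43% of the 2310 counts on the gene, whereas over all genes it held 34.7% of the gene counts. The exons of *Npy* are short, the longest of 203 bases. Among genes with at least 100 counts, the exon table held a median of 5.85% of the counts of the 607 genes whose longest listed exon had 250 bases or less, 29.3% for those with up to 1000 bases and 63.1% above that. *Npy* was therefore one of many genes with short exons that had few exon counts.

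Markers of other cells that could hold *Npy* are given beside it. The 10 glial and neural genes, with 0 of 10 lacking counts altogether, summed to 195, 213 and 197 CPM in FXR+/+ against 197, 184 and 186 CPM in FXR-/- libraries, overlapping and with the highest sum in an FXR+/+ library. Of the 9 tested, 1 was higher and 1 lower at an unadjusted p under 0.05 (background 6.18% and 4.16%). *Gfap*, a glial filament, was at 0.527 ± 0.157 and 0.971 ± 0.187 CPM (log2 fold change 0.91), and *Th*, the enzyme that limits catecholamine synthesis and the most abundant of the list per kb, at 74.8 ± 11.8 and 59.1 ± 7.30 CPM (−0.33, adjusted p = 0.287 by edgeR). *Ncam1*, a neural adhesion molecule that endocrine cells share, was at 105 ± 8.49 and 103 ± 11.9 CPM. *Dbh*, which makes noradrenaline and is the defining enzyme of sympathetic nerves, was below the filter on low counts, at 0, 3.86 and 0 CPM in FXR+/+ female 1, male 1 and male 2 and at 0.0405 to 0.0526 CPM in FXR-/- libraries, so only FXR+/+ male 1 held more than traces. Delta-cell markers summed to 3250 to 5270 CPM and 4370 to 5950 CPM, and alpha-cell markers to 22100 to 38300 CPM and 27400 to 38800 CPM, overlapping in both cases. *Vip*, a neuropeptide gene counted with the gut endocrine markers below, was higher in every FXR-/- library. The part of nerves and of these other cells in *Npy* was not tested.

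Per kb, the pancreatic member of the peptide family was far above *Npy*, with a mean over the 6 libraries of 6280 against 29.4 CPM per kb. This gene, *Ppy*, encodes pancreatic polypeptide and was at 2760 ± 378 CPM in FXR+/+ against 3520 ± 682 CPM in FXR-/- islets (SD, n = 3), with overlapping libraries (log2 fold change 0.33, adjusted p = 0.594 by edgeR). Of 4 tested genes of the family and its receptors, 0 had an unadjusted p under 0.05 in either direction (background 6.18% higher and 4.16% lower). The median log2 fold change was 0.24. The 3 PP-cell markers summed to 3480 to 4560 CPM and 3900 to 5560 CPM.

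**Figure D3:**
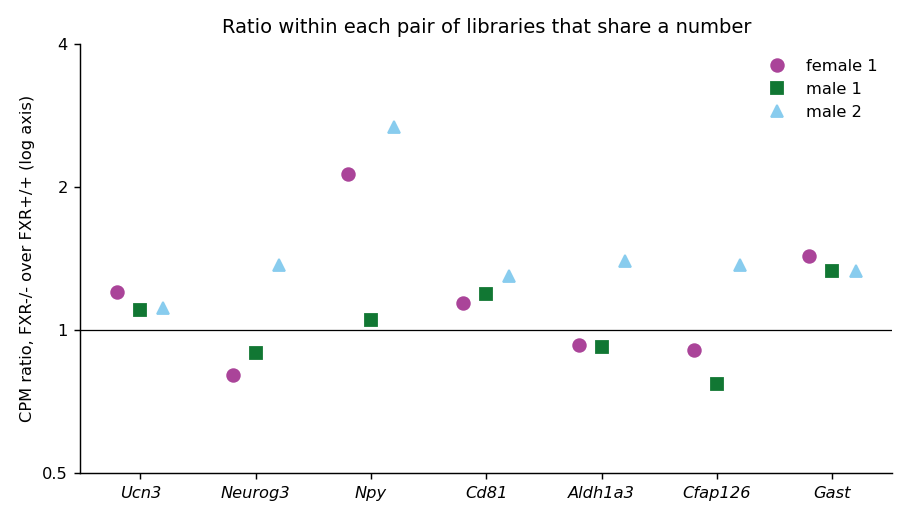
Ratio of CPM in FXR-/- over FXR+/+ within each pair of libraries that share a sex and number (log axis), for all 7 markers. *Ucn3*, *Npy* and *Cd81* are above 1 in 3 of 3 pairs. *Gast* is too, but with 2 to 8 counts per library. Both male 2 libraries had 8 *Gast* counts, so that ratio comes from the scaling alone. *Neurog3*, *Aldh1a3* and *Cfap126* are below 1 in female 1 and male 1 and between 1.37 and 1.40 in male 2. The labels state no pairing, and the share of all genes above 1 in 3 of 3 pairs was not computed.

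*Cd81* (NCBI gene 12520; chromosome 7, plus strand, 143052739 to 143067934) encodes a tetraspanin, a membrane protein that organises receptors and integrins. Its counts were 2055, 1693 and 2380 for FXR+/+ against 2458, 1894 and 2324 for FXR-/-. At 87.5, 83.9 and 75.1 CPM in FXR+/+ against 99.5, 99.6 and 97.7 CPM in FXR-/- islets, the 2 groups did not overlap. The spread was small, with an SD of 6.40 CPM around 82.2 CPM in FXR+/+ and of 1.04 CPM around 98.9 CPM in FXR-/- islets (n = 3). The log2 fold change was 0.27 (SE 0.0801, 95% interval 0.08 to 0.46, unadjusted p = 0.0110, adjusted p = 0.429 by edgeR's quasi-likelihood test), and the two-sided exact permutation test gave p = 0.1. FXR-/- was higher in 3 of 3 pairs, by 1.14, 1.19 and 1.30 times. This difference of about 1.20-fold ranked 373 by p among the 14619 genes. It was 0.18 when libraries were scaled by their size alone, a scaling that put the median over all tested genes at −0.0865, and between 0.21 and 0.31 when single libraries were left out.

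*Cd81* shares 104 exon bases with *R74862*, a noncoding transcript of the opposite strand, which was at 3.10 to 5.51 CPM (log2 fold change −0.02). Of the 8 listed *Cd81* exons, all tested, the first and the last had log2 fold changes of 0.36 and 0.26, and the last, of 619 bases, did not overlap between genotypes. Exon 3, of 98 bases, had −0.82 (unadjusted p = 0.0447, adjusted p = 0.637 by edgeR over 26998 exons), with every FXR-/- library lower. The exons were then summed in groups that were chosen after their values were seen. Exons 1 and 8, with 88.5% of the exon counts of the gene, were at 91.1 ± 8.86 and 110 ± 5.76 CPM of the exon table (SD, n = 3), a ratio of 1.21. Exons 2 to 7, with 11.5% of the exon counts, were at 12.2, 15.7 and 14.3 in FXR+/+ and 12, 11.4 and 11.6 in FXR-/- libraries, a ratio of 0.832 with the groups again apart but in the opposite order. The inner exons held few counts and were not uniform, with log2 fold changes from −0.82 in exon 3 to 0.15 in exon 5.

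**Figure D4:**
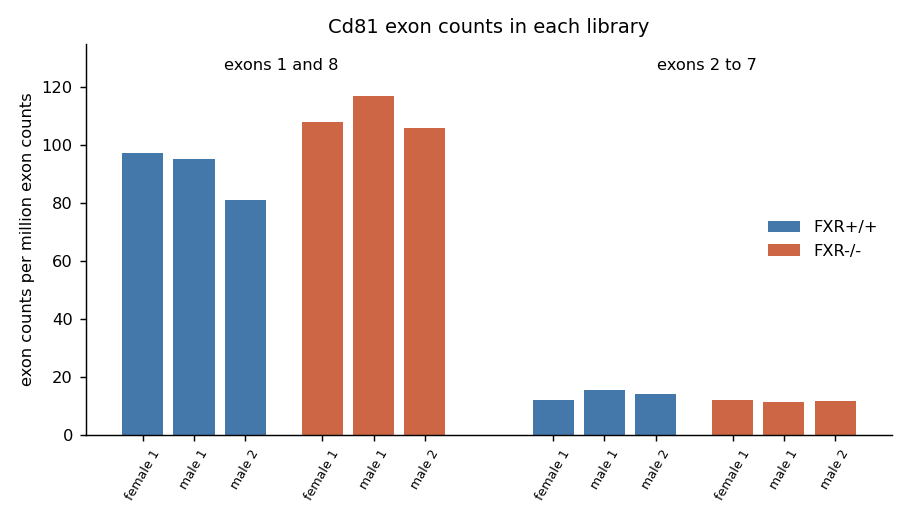
*Cd81* exon levels as CPM of the exon table (bars, axis from 0) in each library, for exons 1 and 8 together and exons 2 to 7 together. In exons 1 and 8 the FXR-/- libraries were at 106 to 117 and the FXR+/+ libraries at 81.0 to 97.2, while in exons 2 to 7 all 6 libraries were between 11.4 and 15.7.

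*Cd81* is also made by endothelial, immune and stromal cells, so their markers are set beside it. The 8 endothelial markers summed to 489, 572 and 471 CPM in FXR+/+ against 593, 939 and 641 CPM in FXR-/- libraries, without overlap. Of these, 5 of 8 were higher at an unadjusted p under 0.05, against 6.18% of all genes, with a median log2 fold change of 0.46, and 0 had an adjusted p under 0.05. *Emcn*, an endothelial surface sialomucin, was at 36.8 ± 4.36 and 55.6 ± 7.49 CPM (0.59, adjusted p = 0.287 by edgeR), and *Cdh5*, the cadherin of endothelial junctions, at 29.5 ± 4.79 and 46.1 ± 16.1 CPM (0.63, adjusted p = 0.457). *Plvap*, a protein of endothelial windows and the most abundant of that list per kb, was at 139 ± 19.4 and 227 ± 61.8 CPM (SD, n = 3; 0.69, adjusted p = 0.336 by edgeR). The 8 macrophage markers summed to 134, 152 and 112 CPM against 153, 184 and 150 CPM, with 4 of 8 higher at an unadjusted p under 0.05 (background 6.18%) and a median of 0.43. The 10 stellate and fibroblast markers had a median of 0.76 with overlapping sums, and the 4 tested lymphocyte markers a median of −0.82. None of these lists held a gene without counts among those listed. Their part in *Cd81* was not tested.

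Of 15 tested tetraspanins and CD81 partners, 1 was higher and 0 lower at an unadjusted p under 0.05 (background 6.18% and 4.16%). The median log2 fold change was 0.09. *Tspan33* was at 30.2 ± 1.52 CPM in FXR+/+ against 34.7 ± 1.09 CPM in FXR-/- islets (SD, n = 3; log2 fold change 0.20, adjusted p = 0.481 by edgeR). *Cd63*, the most abundant of the list per kb and a protein of lysosomes and secretory granules, was at 448 ± 13.6 and 470 ± 15.1 CPM with overlapping libraries.

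*Aldh1a3* (NCBI gene 56847; chromosome 7, minus strand, 66390890 to 66427517) encodes an aldehyde dehydrogenase that makes retinoic acid and is switched on in failing beta-cells. Here it had 48, 38 and 77 counts for FXR+/+ against 47, 33 and 81 for FXR-/-. The levels were 2.04, 1.88 and 2.43 CPM in FXR+/+ against 1.90, 1.73 and 3.41 CPM in FXR-/- islets. In both genotypes male 2 was the highest and male 1 the lowest library, and the groups overlapped. The means were 2.12 ± 0.281 and 2.35 ± 0.920 CPM (SD, n = 3), with a log2 fold change of 0.14 (SE 0.300, 95% interval −0.56 to 0.84, adjusted p = 0.864 by edgeR). The sign turned without FXR-/- male 2, where the log2 fold change was −0.23, and with exon counts summed per gene, where it was −0.027. At this depth, the interval of *Aldh1a3* was the widest of the panel after that of *Npy*.

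Retinoic acid is made, bound and broken down by the products of many genes. Of 14 tested besides *Aldh1a3*, 13 had a positive log2 fold change, and 3 were higher and 0 lower at an unadjusted p under 0.05 (background 6.18% and 4.16%). The median was 0.21, against 0.00837 over all tested genes. Positive values were also found in 16 of 18 acinar and 8 of 8 endothelial markers, so this is not particular to retinoid genes. *Cyp26b1*, which breaks down retinoic acid, was at 1.49, 2.33 and 0.568 CPM in FXR+/+ against 8.95, 14.1 and 4.71 CPM in FXR-/- libraries. All 3 FXR-/- libraries were above all 3 FXR+/+ libraries, as in 8.01% of tested genes, and the log2 fold change was 2.71 (SE 0.554, adjusted p = 0.266 by edgeR). *Dhrs3*, which turns retinaldehyde back to retinol, was at 7.52 ± 2.74 and 13.0 ± 2.25 CPM (SD, n = 3; 0.79, adjusted p = 0.43 by edgeR). *Rarb*, a retinoic acid receptor, was at 0.714 ± 0.164 and 1.35 ± 0.205 CPM (0.94, adjusted p = 0.45 by edgeR). *Rbp4*, the retinol carrier and the most abundant of the list per kb, was at 150 ± 29.2 and 172 ± 17.7 CPM with overlapping libraries. None of the list passed the adjusted threshold, and in *Cyp26b1*, *Dhrs3* and *Rarb* male 1, the library with the most acinar RNA, was the highest of its genotype. The part of acinar RNA in these values was not tested.

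*Gast* (NCBI gene 14459; chromosome 11, plus strand, 100334407 to 100336996) encodes gastrin, a hormone of stomach G-cells and of the fetal pancreas. Its counts were 2, 4 and 8 for FXR+/+ against 3, 5 and 8 for FXR-/-. The exact Poisson 95% intervals of these counts ran from 0.242 to 7.22 for the lowest and from 3.45 to 15.8 for the highest, and cover counting error only. The levels were 0.0852, 0.198 and 0.252 CPM against 0.121, 0.263 and 0.336 CPM. The groups overlapped (two-sided exact permutation test, p = 0.5), and with 14 counts in all FXR+/+ libraries and 16 in all FXR-/- libraries a difference was not detectable at this depth. *Gast* did not pass the filter and was not tested by edgeR. Of the receptors for gastrin and cholecystokinin, only *Cckar*, a receptor abundant in acinar cells, was tested, at 28.1 ± 14.6 and 33.1 ± 12.2 CPM (SD, n = 3; log2 fold change 0.23, adjusted p = 0.783 by edgeR). Gut endocrine and enterochromaffin markers summed to 11400 to 13500 CPM in FXR+/+ and 13000 to 14300 CPM in FXR-/- libraries. Most of this sum was *Chga*, the most abundant of the list per kb, at 11200 ± 1050 and 12000 ± 579 CPM. *Ghrl*, the ghrelin gene, was at 2.71 ± 0.681 and 2.79 ± 0.819 CPM. Of 4 tested, 1 was higher and 0 lower at an unadjusted p under 0.05 (background 6.18% and 4.16%). *Vip*, which was placed in this list but encodes a neuropeptide of nerves, was at 13.2, 19.4 and 6.78 CPM in FXR+/+. In FXR-/- libraries it was at 30.3, 23.7 and 23 CPM. Every FXR-/- library was higher, as in 8.01% of tested genes (log2 fold change 0.97, adjusted p = 0.449 by edgeR).

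Other genes of the mature beta-cell program had a median log2 fold change of 0.03. Of 22 tested, 3 were higher and 1 lower at an unadjusted p under 0.05, against 6.18% higher and 4.16% lower of all genes, so the lower count is near the background. *Ins2*, an insulin gene and the most abundant of the list per kb, was at 146000 ± 10700 and 164000 ± 34000 CPM (SD, n = 3) with overlapping libraries. *Mafa*, the transcription factor of adult beta-cells, was at 314, 317 and 324 CPM in FXR+/+ against 446, 477 and 494 CPM in FXR-/- libraries. The groups were far apart relative to their spread, and the log2 fold change was 0.57 (SE 0.088, unadjusted p = 0.000268, adjusted p = 0.215 by edgeR). *Ppp1r1a*, a phosphatase inhibitor of mature beta-cells, was at 272 ± 13.8 and 348 ± 50.6 CPM (SD, n = 3; 0.35, adjusted p = 0.43 by edgeR). *Nkx6-1*, a beta-cell identity factor, was at 331 ± 60.8 and 431 ± 54.9 CPM (0.37, adjusted p = 0.457 by edgeR). *Sytl4*, a protein that docks insulin granules, was at 345 ± 33.5 and 277 ± 18.2 CPM (−0.32, adjusted p = 0.444 by edgeR).

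Of 22 tested genes of the immature or dedifferentiated state besides the 7 markers, 1 was higher and 0 lower at an unadjusted p under 0.05. The background was 6.18% higher and 4.16% lower. The list had 19 positive values and a median log2 fold change of 0.29, against 0.00837 over all tested genes. *Cartpt*, a neuropeptide precursor, was at 0.980, 1.49 and 0.852 CPM in FXR+/+ against 2.71, 3.36 and 2.35 CPM in FXR-/- libraries. As in *Npy*, every FXR-/- library was higher (log2 fold change 1.37, SE 0.296, adjusted p = 0.287 by edgeR). *Gc*, an alpha-cell gene found in dedifferentiated beta-cells and the most abundant of this list per kb, was at 61.4 ± 2.38 and 71.7 ± 9.60 CPM with overlapping libraries. Markers of other cells also had positive medians, at 0.76 for stellate and fibroblast genes (10 of 10 positive), 0.46 for endothelial, 0.43 for macrophage and for acinar, and 0.37 for ductal genes. *Pdgfra* is in both the immature and the stellate list. The part of these cells in the values of the immature list was not tested. The 8 housekeeping genes had a median of 0.01.

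**Figure D5:**
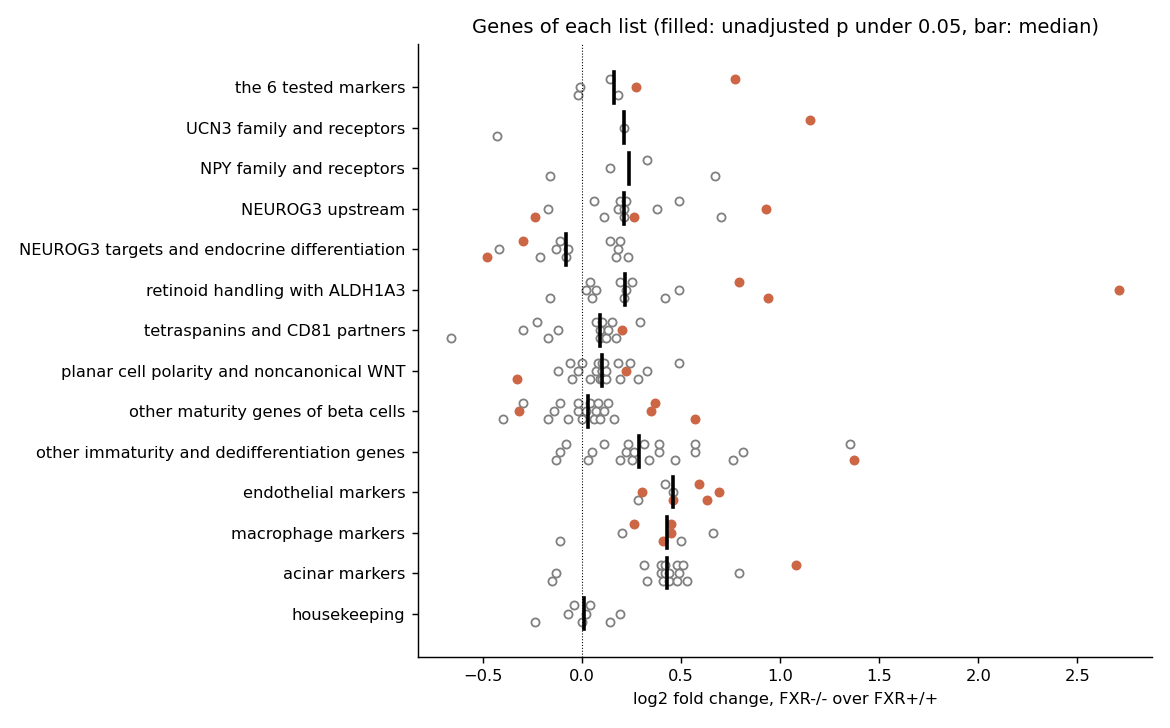
Log2 fold change of FXR-/- over FXR+/+ islets (horizontal axis) for each tested gene of the lists named in the text, with filled points for an unadjusted p under 0.05 and a bar at the median of each list. The median was 0.16 for the 6 markers, 0.03 for other maturity genes, 0.29 for other immaturity genes and 0.46 for endothelial markers.

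The sexes were compared after the levels by library had been seen, because the female libraries of 3 of the 7 markers did not overlap the male ones. Among all tested genes, the female libraries were both below every male library in 8.04% and both above in 7.86%, against 1 (*Ucn3*) and 1 (*Neurog3*) of the 6 tested markers. *Ucn3* was at 375 and 448 CPM in the female libraries and at 482 to 546 CPM in the 4 male libraries. *Gast* was also lower in both female libraries, at 0.0852 and 0.121 CPM against 0.198 to 0.336 CPM. *Neurog3* was higher in both, at 5.71 and 7.11 CPM against 3.91 to 5.65 CPM. In the same edgeR fit, the log2 ratio of female over male was −0.32 for *Ucn3* (SE 0.1, unadjusted p = 0.0136, adjusted p = 0.559) and 0.37 for *Neurog3* (SE 0.206, adjusted p = 0.697). Neither passed by edgeR, while 0.0547% of all genes had an adjusted p under 0.05 and 7.5% an unadjusted p under 0.05 in this comparison. For *Ucn3* the adjusted p ran from 0.0112 (DESeq2) to 1 over 15 alternatives, and it had been picked for its separation by sex. Each genotype had 1 female library, so sex cannot be told apart from what else those 2 libraries share. An interaction of sex and genotype had an adjusted p of 1 for each tested marker by edgeR.

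Across the 6 libraries, the log2 levels of *Npy* and *Cd81* had a Pearson r of 0.85 and those of *Neurog3* and *Cfap126* of 0.83, while *Ucn3* and *Neurog3* had −0.68. These are descriptions over 6 points that share genotype, sex and composition. The genes most like each marker over the same 6 libraries were *Cgref1*, *Ap3b2*, *Pomt1*, *Mcm3* and *Myo7b* for *Ucn3* (r 0.9729 to 0.9944) and *Haus1*, *Fbxl8*, *Prrt3*, *Slain1* and *Ptchd1* for *Cfap126* (0.9693 to 0.9901). For *Neurog3* they were *Sytl3*, *Vwde*, *Hs3st3b1*, *Fdx1* and *Mfsd9* (0.9672 to 0.9872). For *Npy* they were *Ms4a4d*, *Tprn*, *Dclk1*, *Gfra4* and *Timp2* (0.9780 to 0.9896), and for *Cd81* *Kcna2*, *Nbl1*, *Abcb8*, *Sdr9c7* and *Ccnjl* (0.9886 to 0.9910). For *Aldh1a3* they were *Grtp1*, *Dedd*, *Pam16*, *Cntn1* and *Samd10* (0.9570 to 0.9913). Between 6 genes (*Aldh1a3*) and 79 genes (*Cd81*) had an r over 0.95 with a marker.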

How the data were processed

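Islet RNA-seq of FXR+/+ and FXR-/- mice was re-analysed, with genotype, sex and age taken from the labels. RNA was enriched with oligo(dT) beads and primed with random hexamers, per the labels. The submitters' processing notes name HISAT, without a version. The counting rule and its use of strand are not given in the sources used here. The authors deposited whole-number counts per gene and per exon, without normalization. Exon positions are those of GRCm38, and 86.7% of exons match an exon of GENCODE vM21. Tables of the authors' own comparison (mean, fold change, p and q) were not used.

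The test of gene counts was edgeR 4.0.16 in R 4.3.3 (filterByExpr by genotype, minimum count 10 and total 15, TMM, glmQLFit and glmQLFTest), modelling sex and genotype over all 6 libraries and Benjamini-Hochberg adjustment over 14619 genes. The fit had 3 residual and 4.43 prior degrees of freedom. CPM are counts scaled to the library size after TMM. Levels per kb used exon lengths of GENCODE vM21. Exons were tested likewise. Permutation tests used log2(CPM + 0.01), and likeness used Pearson r of log2(CPM + 0.5). The edgeR test was run on simulated counts with 200 changed genes and the same dispersion for every gene. The simulation held no effect of sex or cell composition, so it does not show how well differences as small as these are found. Alternatives were DESeq2 1.42.0, other scalings, filters and terms, exon sums and single libraries left out.

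The 7 markers and the gene lists were chosen with earlier results of these data known. Named are the markers, the 5 genes most like each and *Nr1h4*. For lists described gene by gene, the genes with an unadjusted p under 0.05 (at most 3, by p) and the most abundant gene per kb are also named. Other lists are given only by sums, counts or medians. *Crhr2*, *Neurod1*, *Nkx6-1*, *Ncam1*, *Dbh*, *Ghrl*, *Pdgfra*, *Fam241b* and *R74862* were added after their values were seen. Deviations of same-numbered libraries from their group means correlated at 0.373 (female 1), 0.419 (male 1) and 0.346 (male 2), and those of other pairs at 0.0628 or below. Deviations from a group mean cancel out within a genotype, so these correlations are not independent of each other. Same-numbered libraries also share sex and, in male 1, the most acinar RNA. The numbers come from the labels and sex, and the labels state no pairing, so ratios within pairs are descriptions only. No 2 libraries agreed within sampling noise.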

Additional observations from a re-analysis of the deposited data

How the results depend on the processing

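No marker passed the adjusted threshold under any of the 18 alternatives. The number of genes called, 0 in the fit reported above, was 24 (20 higher, 4 lower in FXR-/-) with the replicate block, 170 with DESeq2 (118 higher, 52 lower), 4 with exon counts summed per gene and 7 with a term for acinar RNA, and 0 in the others. The cause was not tested. With the replicate block, 0 of 6 markers were called and *Npy* and *Cd81* had log2 fold changes of 0.86 and 0.27. *Npy*, *Cd81* and *Ucn3* kept their direction throughout (0.51 to 1.27, 0.18 to 0.31 and 0.09 to 0.20), *Npy* over 17 alternatives, since its exons were too few to sum. The small differences of the other markers did not. *Neurog3* was at 0.13 in males alone and at −0.21 to 0.13 with single libraries left out. *Aldh1a3* was at −0.027 with exon sums and at −0.23 to 0.34 with single libraries left out, and *Cfap126* at 0.05 in males alone and at −0.17 to 0.086. *Gast*, with 2 to 8 counts per library, did not pass the filter on low counts.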
